A study of Mus musculus with 6 samples.

Results

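The miR-23, miR-27 and miR-24 clusters are a pair of related microRNA clusters, one carrying miR-23a, miR-27a and miR-24-2 and the other carrying miR-23b, miR-27b and miR-24-1. The 9 members were taken by name from the deposited table of read counts for 1390 mature miRNAs: 5 strands from the 3′ arm of a hairpin and 4 from the 5′ arm. All 9 were in the table, and all 9 passed the filter on low counts that left 519 miRNAs for testing. Small RNA was sequenced from whole thymus of C57BL mice, labelled wild-type and 5 weeks old. The irradiated group (n = 3) received 6 Gy of X-rays, delivered at 800 cGy/min from 40 cm, and its thymi were taken 24 h later. Controls (n = 3) had no irradiation. The labels call the molecule polyA RNA, and they number the replicates 1 to 3 in each group without saying that equal numbers pair mice.

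Each microRNA gene is transcribed as part of a longer RNA, from which a hairpin is cut. One arm of the hairpin usually stays in the silencing complex as the guide, and the other, the passenger, is mostly lost. The guide finds messenger RNAs chiefly through its seed, bases 2 to 8 from its 5′ end. The clusters are known from blood vessel growth, from muscle and fat, and from T cells, where they restrain effector responses. Individual members are known from other settings: miR-23 lowers glutaminase, miR-27 lowers regulators of fat cell formation and of blood vessel growth, and miR-24 lowers cell-cycle proteins and the histone variant H2AX, which marks DNA breaks. The title of the series speaks of networks of competing RNA after irradiation, and the comparison asks which of these miRNAs differed in level after the dose.

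The mature sequences are shown because they decide which counts can be told apart between the clusters. They are written 5′ to 3′ as the deposited table gives them, with the seed in capitals.
mmu-miR-23a-3p: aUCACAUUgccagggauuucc
mmu-miR-23b-3p: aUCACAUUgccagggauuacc
mmu-miR-27a-3p: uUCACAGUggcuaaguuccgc
mmu-miR-27b-3p: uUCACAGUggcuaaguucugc
mmu-miR-24-3p: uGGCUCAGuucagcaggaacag
mmu-miR-27a-5p: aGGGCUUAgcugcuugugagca
mmu-miR-27b-5p: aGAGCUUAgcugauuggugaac
mmu-miR-24-2-5p: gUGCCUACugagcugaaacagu
mmu-miR-24-1-5p: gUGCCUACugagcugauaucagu
The miR-23 guides share their seed and differ at 1 of 21 bases, U19A from miR-23a-3p to miR-23b-3p, counted from the 5′ end. The miR-27 guides likewise share their seed and differ at 1 of 21 bases, C19U from miR-27a-3p to miR-27b-3p. The seeds of miR-23 and miR-27 differ from each other at 1 base, U7G. Counts of these near-identical guides depend on how reads were assigned at that single base, and the sources used here do not give it. The miR-27 passengers differ at 8 of 22 bases, and the miR-24 passengers share their first 16 bases and then diverge. No miRNA of the table outside the members carries any of these 6 seeds. Of the 9 sequences, 8 were identical to the entries of RefSeq (GRCm38.p6), and miR-23b-3p had no entry to compare.

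The clusters lie on chromosomes 8 and 13, both on the plus strand (GRCm38, GENCODE M21). On chromosome 8, Mir23a runs from 84208518 to 84208592, Mir27a from 84208672 to 84208758 and Mir24-2 from 84208815 to 84208921. This cluster spans 404 bases outside annotated protein-coding genes, and the end of Mir24-2 overlaps the start of the long non-coding RNA gene Gm26532. On chromosome 13, Mir23b runs from 63300484 to 63300557, Mir27b from 63300712 to 63300784 and Mir24-1 from 63301208 to 63301275, a span of 792 bases. All 3 lie inside the protein-coding gene 2010111I01Rik in its direction, Mir23b in an intron, and Mir27b and Mir24-1 overlapping an exon of at least 1 annotated transcript. They also lie opposite an intron of Fancc, a Fanconi anaemia gene of DNA crosslink repair. MiR-24-3p is cut from both clusters, so its reads do not report on either one. The hairpins of its genes show the identical 3′ arm and the differing 5′ arms, both in capitals.
Mir24-2: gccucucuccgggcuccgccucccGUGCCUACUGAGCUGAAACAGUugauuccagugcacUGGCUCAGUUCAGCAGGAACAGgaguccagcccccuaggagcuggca
Mir24-1: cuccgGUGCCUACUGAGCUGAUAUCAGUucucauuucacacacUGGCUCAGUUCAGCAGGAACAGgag
On the minus strand each of these hairpins lies opposite another annotated miRNA gene, Mir3074-2 on chromosome 8 and Mir3074-1 on chromosome 13.

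**Figure D1:**
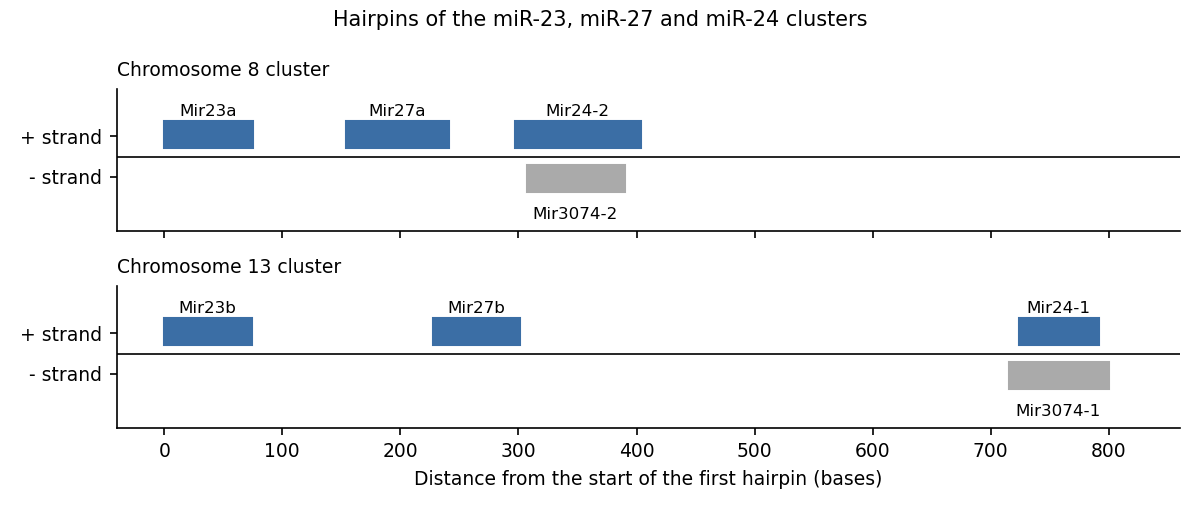
Hairpins of the clusters on chromosomes 8 and 13, with the distance in bases from the start of the first hairpin on the horizontal axis. Blue boxes are hairpins on the plus strand and grey boxes hairpins on the minus strand, and each miR-24 hairpin has a miR-3074 hairpin opposite it.

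Each library held between 7730641 and 9287017 counts over 828 to 924 detected miRNAs. Levels below are CPM, counts per 1000000 after trimmed-mean (TMM) scaling, with factors from 0.823 to 1.39, both in control libraries. A count of 0 allows up to 3 counts, or 0.278 to 0.428 CPM, for counting error only, since the reads carry no molecular identifiers. Over all 519 miRNAs, edgeR's quasi-likelihood test with Benjamini-Hochberg adjustment called 144 higher and 174 lower (adjusted p under 0.05), which is 45.3% higher among the calls. With library totals 38.4% of the calls were higher and with upper-quartile factors 59.7%, and the median log2 change over the 519 shifted from 0.01 under TMM to −0.13, 0.12 and 0.44 under library totals, median-of-ratios and upper-quartile factors. Irradiated replicates 2 and 3 stood apart in striated muscle miRNAs (summed level 20113 and 13393 CPM, against 602 CPM in irradiated replicate 1 and 202 to 480.1 CPM in control) and in erythroid miRNAs (4384 and 1570 CPM, against 348 CPM and 245 to 392 CPM).

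Irradiation was followed by higher levels of both miR-23 guides and of a pair of passenger strands, miR-27b-5p and miR-24-2-5p, by 1.88-fold to 2.62-fold. The 3 most abundant members, miR-27b-3p, miR-24-3p and miR-27a-3p, did not pass the test. In edgeR 4 of the 9 members passed as higher and 0 as lower, and 5 missed the threshold, in a comparison that called 61.3% of all tested miRNAs, 27.7% higher and 33.5% lower. For 6 members the groups were fully separated in TMM-scaled CPM, all higher in irradiated mice. On the same scale full separation was seen for 68.6% of all tested miRNAs, 32.0% higher and 36.6% lower. As plain shares of library counts, without scaling factors, miR-24-3p, miR-24-2-5p and miR-24-1-5p overlapped between the groups, and miR-27b-3p was separated as lower. The median log2 change was 0.80 over the members and 0.01 over all tested miRNAs. The count is not of 9 separate genes, since the members come from 6 hairpins and differ by few bases. Without irradiated replicates 2 and 3, which leaves 1 irradiated library whose spread is taken to equal that of the controls, 4 members were again higher and 0 lower. No member was lower at an unadjusted p under 0.05, and DESeq2 and limma-voom also called 0 lower. The number called higher was 2 with library totals, 7 with upper-quartile factors and 2 without control replicate 2.

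**Figure D2:**
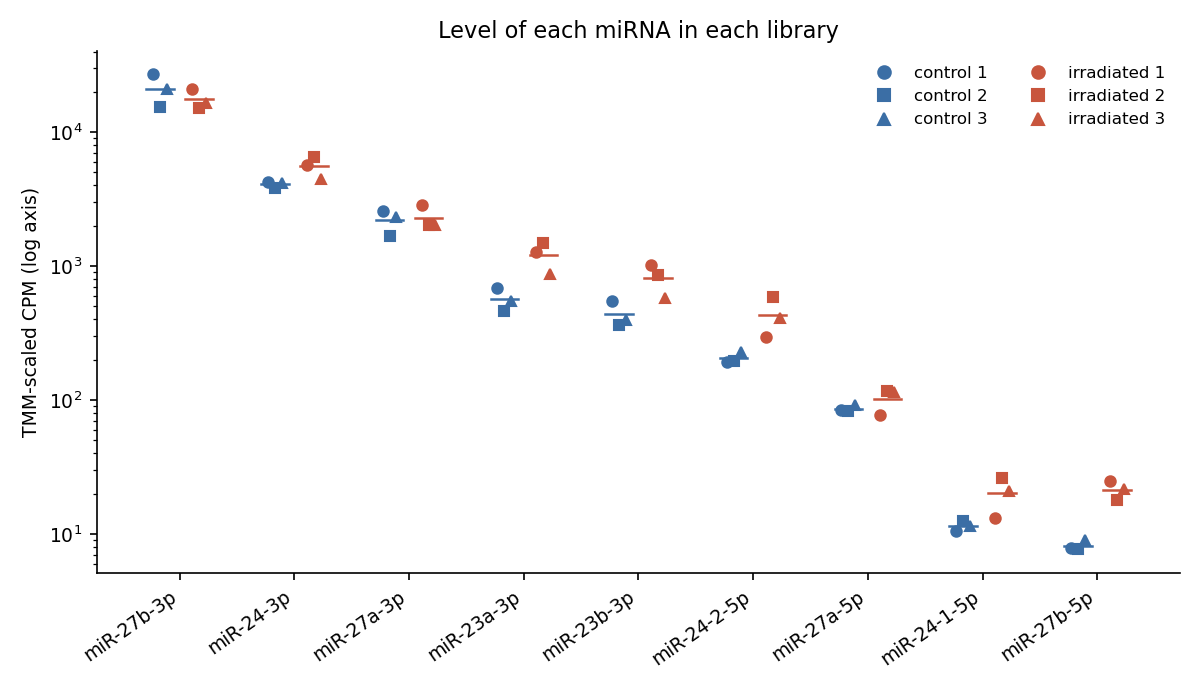
TMM-scaled CPM (log axis) of the 9 miRNAs in each library, controls in blue and irradiated in red, with the marker shape giving the replicate and a short line the group mean. The levels run from 7.70 CPM (miR-27b-5p) to 26958 CPM (miR-27b-3p), and 6 members have all irradiated points above all control points.

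The most abundant member by far was mmu-miR-27b-3p, the miR-27 guide of the chromosome 13 cluster. It stood at 26958, 15281 and 20967 CPM in the 3 controls, and irradiated replicates 1, 2 and 3 had 20823, 15167 and 16627 CPM. The groups overlapped, with control replicate 1 the highest and irradiated replicate 2 the lowest of the 6 libraries. Its log2 fold change was −0.26 ± 0.28 (SE, 95% interval −0.88 to 0.35), with an adjusted p of 0.418 in edgeR, and it turned to 0.17 with upper-quartile factors. As a plain share of library counts, without scaling factors, miR-27b-3p held 2.07% to 2.22% in control and 1.49% to 1.84% in irradiated libraries, which did not overlap (exact two-sided permutation p of 0.1, the smallest that 3 against 3 allow). The edgeR test with library totals gave −0.36 and an adjusted p of 0.185, so it did not pass on that scale either.

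The near-twin from chromosome 8, mmu-miR-27a-3p, stood at 2572, 1689.6 and 2325 CPM in the 3 controls, and irradiated replicates 1, 2 and 3 had 2873, 2019 and 2010.3 CPM. These values also overlapped. The log2 fold change was 0.07 ± 0.26 (SE, 95% interval −0.52 to 0.65), with an adjusted p of 0.837 in edgeR, and it was −0.04 with library totals.

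The shared guide mmu-miR-24-3p, which both clusters make, was measured at 4244, 3828 and 4136 CPM in the 3 controls, and irradiated replicates 1, 2 and 3 had 5703, 6475 and 4463 CPM. Every irradiated library was above every control library on this scale, with irradiated replicate 3 close to the highest control. As a plain share of library counts the groups overlapped, at 0.349% to 0.534% in control and 0.453% to 0.636% in irradiated libraries. The log2 fold change was 0.45 ± 0.23 (SE, 95% interval −0.08 to 0.97) and the edgeR adjusted p was 0.119, which did not pass. It passed with upper-quartile factors (0.87, adjusted p of 0.0142) and without the most abundant miRNA of the table (0.64, adjusted p of 0.0460), and over its 17 alternatives the adjusted p ran from 0.0142 to 0.458.

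The miR-23 guides were both higher after irradiation. For mmu-miR-23a-3p the level was 689, 462 and 551 CPM in the 3 controls, and irradiated replicates 1, 2 and 3 had 1276, 1484 and 872 CPM, so all irradiated libraries lay above all controls. It rose 2.13-fold (log2 1.09 ± 0.28 SE, 95% interval 0.47 to 1.72), with an adjusted p of 0.00752 in edgeR. It passed in every alternative with more than 1 irradiated library.

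The other miR-23 guide, mmu-miR-23b-3p, was at 544, 364 and 398 CPM in the 3 controls, and irradiated replicates 1, 2 and 3 had 1012, 863 and 580.03 CPM. The groups again did not overlap, although irradiated replicate 3 was near control replicate 1. It rose 1.88-fold (log2 0.91 ± 0.29 SE, 95% interval 0.27 to 1.55), and the adjusted p in edgeR was 0.0201. The call was lost with library totals (adjusted p of 0.0606), with only means of 10 CPM or more kept (0.0682) and without control replicate 2 (0.0912) or 3 (0.0614). Over the alternatives with more than 1 irradiated library the edgeR, DESeq2 or limma-voom adjusted p ran from 0.00388 to 0.0912.

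The passenger strands are rare, but those of miR-27 and miR-24 have sequences that tell the clusters apart. On chromosome 13, mmu-miR-27b-5p had 55, 83 and 73 reads in control and 189, 150 and 204 reads in irradiated replicates 1, 2 and 3, or 7.84, 7.70 and 8.96 CPM against 24.7, 17.9 and 21.7 CPM. Every irradiated library held at least 17.9 CPM and no control more than 8.96 CPM. It rose 2.62-fold, the largest change among the members (log2 1.39 ± 0.29 SE, 95% interval 0.74 to 2.03), and its edgeR adjusted p was 0.00261. It passed in every alternative with more than 1 irradiated library. With irradiated replicate 1 as the only irradiated library the log2 fold change was 1.80.

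Its counterpart from chromosome 8, mmu-miR-27a-5p, stood at 84.1, 82.0 and 91.9 CPM in the 3 controls, and irradiated replicates 1, 2 and 3 had 76.8, 116 and 114 CPM. Irradiated replicate 1 was the lowest of all 6 libraries and the other irradiated libraries were the highest. The log2 fold change was 0.25 ± 0.27 (SE, 95% interval −0.35 to 0.85), and edgeR gave an adjusted p of 0.425. It passed with upper-quartile factors only (0.67, adjusted p of 0.0389, the lowest over its 17 alternatives, with 0.983 the highest).

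The miR-24 passenger specific to chromosome 8, mmu-miR-24-2-5p, was at 193, 196 and 229.6 CPM in the 3 controls, and irradiated replicates 1, 2 and 3 had 294, 588 and 409 CPM. In CPM all irradiated libraries were above all controls, and irradiated replicate 1 was the closest to them. As a plain share of library counts the groups overlapped, with control replicate 2 (0.0273%) above irradiated replicate 1 (0.0260%). MiR-24-2-5p rose 2.09-fold (log2 1.06 ± 0.30 SE, 95% interval 0.39 to 1.73), and its edgeR adjusted p was 0.0117. The call was lost with library totals (adjusted p of 0.0537) and without control replicate 2 (0.0547), and over its 17 alternatives the adjusted p ran from 4.7e-04 to 0.0547. With irradiated replicate 1 alone, the log2 fold change was 0.71.

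The one specific to chromosome 13, mmu-miR-24-1-5p, had 74, 134 and 94 reads in control and 100, 218 and 198 reads in irradiated replicates 1, 2 and 3, or 10.6, 12.4 and 11.5 CPM against 13.05, 26.0 and 21.0 CPM. The groups did not overlap in CPM, with irradiated replicate 1 just above the controls. As a plain share of library counts they did overlap, with control replicate 2 (0.00173%) above irradiated replicate 1 (0.00115%). The log2 fold change was 0.80 ± 0.33 (SE, 95% interval 0.07 to 1.52), and the edgeR adjusted p of 0.0543 missed the threshold. It passed in 5 of 17 alternatives, among them median-of-ratios factors (0.0244), DESeq2 (0.0276) and the omission of irradiated replicate 1 (0.00794). Over the alternatives with more than 1 irradiated library the edgeR, DESeq2 or limma-voom adjusted p ran from 0.00482 to 0.247. With irradiated replicate 1 as the only irradiated library the log2 fold change was 0.38. The irradiated replicates in which the miR-24 passengers were highest, 2 and 3, are those that stood apart in striated muscle and erythroid miRNAs, and the part of those cells in these values was not tested.

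**Figure D3:**
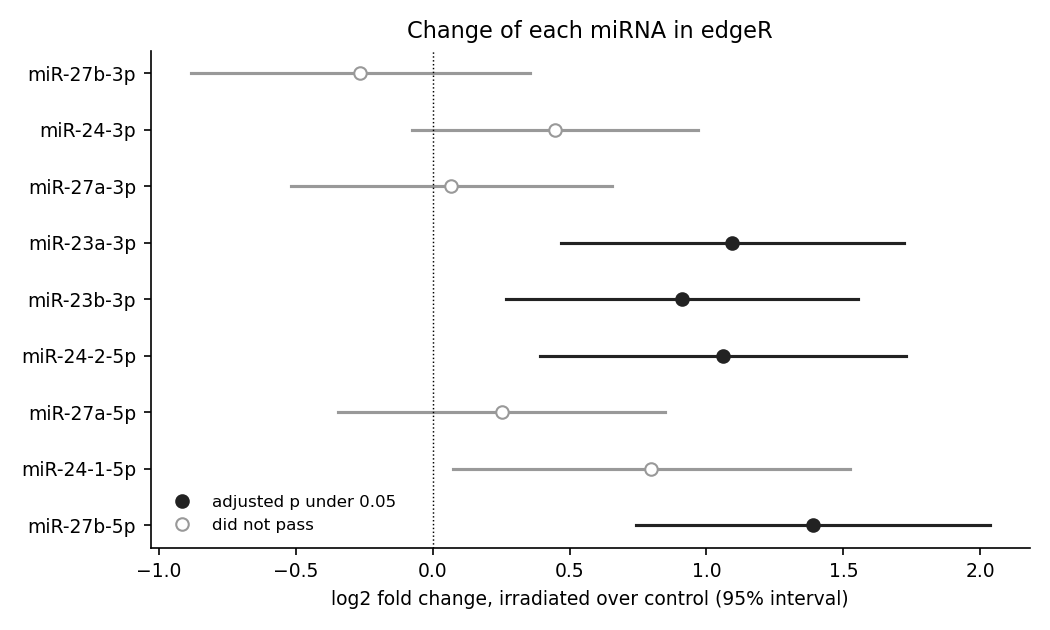
Log2 fold change of irradiated over control with its 95% interval from edgeR for the 9 miRNAs, ordered from the most to the least abundant. Filled points passed an adjusted p of 0.05: miR-23a-3p (1.09), miR-23b-3p (0.91), miR-24-2-5p (1.06) and miR-27b-5p (1.39).

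The authors' deposited table gives the same direction for all 9 members, from the same libraries. In the authors' deposited table the adjusted p passed 0.05 for miR-23a-3p (0.00242), miR-23b-3p (0.0164), miR-27b-5p (4.2e-04) and miR-24-2-5p (0.00218), and it was 0.0556 for miR-24-1-5p, where 43.9% of the 741 miRNAs with an adjusted p passed, 21.6% higher. These values are not a separate check of the result.

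The order of the levels held almost throughout. From highest to lowest by mean CPM it was miR-27b-3p, miR-24-3p, miR-27a-3p, miR-23a-3p, miR-23b-3p, miR-24-2-5p, miR-27a-5p, miR-24-1-5p and miR-27b-5p. Each neighbour pair down to miR-27a-5p and miR-24-1-5p stood in this order in 6 of 6 libraries. The last pair did not: miR-24-1-5p was above miR-27b-5p in 3 of 3 control libraries and in 1 of 3 irradiated libraries. MiR-27b-3p made up 69.7% to 76.4% of the members' reads in control and 56.7% to 66.2% in irradiated libraries. The members together held 2.93% ± 0.110 of all counts among controls, against 2.67% ± 0.151 after irradiation (SD, n = 3 per group, exact two-sided permutation p of 0.1). The direction turned once the most abundant miRNA of the table was left out of the denominator, to a difference of 0.257 percentage points higher (exact permutation p of 0.6).

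Ratios within a library do not depend on the scaling factor, and 10 were compared between groups. They are not 10 separate results, since they share members and some follow arithmetically from others. Each is a log2 ratio of counts with 0.5 added, tested by an exact two-sided permutation test that cannot give a p under 0.1 with 3 against 3. After Benjamini-Hochberg adjustment over the 10 ratios no adjusted p was under 0.167, and none passed 0.05. Of the 10, 6 had groups that did not overlap, where 68.6% of all tested miRNAs taken singly were fully separated. The share over ratios of other miRNAs was not measured.

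Read counts of the clusters stood in opposite order on the opposite arms of miR-27. The guide counts rest on how reads were assigned at the 1 base that differs, which is not known here. MiR-27b-3p was 9.02 to 10.5 times as abundant as miR-27a-3p in control and 7.25 to 8.27 times in irradiated libraries. On the 5′ arm the chromosome 8 strand led instead: miR-27a-5p was 10.3 to 10.7 times as abundant as miR-27b-5p in control. In irradiated replicates 1, 2 and 3 that ratio was 3.12, 6.5 and 5.26, below all controls. The log2 difference was −1.15 ± 0.32 (SE, n = 3 per group, exact permutation p of 0.1, adjusted 0.167), and it ran from −1.37 to −0.84 with any 1 library left out. The guide ratio, miR-27a-3p over miR-27b-3p, was above all controls in every irradiated library, with a mean log2 difference of 0.31 ± 0.09 (SE, n = 3, exact permutation p of 0.1, adjusted 0.167).

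The 3′ strand of the Mir27b hairpin led the 5′ strand by less in every irradiated library than in any control. In control replicates 1, 2 and 3 there were 3437, 1984 and 2341 reads of miR-27b-3p for each read of miR-27b-5p, and in irradiated replicates 1, 2 and 3 there were 845, 847 and 768. The irradiated values lay close together. The log2 ratio differed by −1.61 ± 0.24 (SE, n = 3 per group, exact permutation p of 0.1, adjusted 0.167), which is a ratio 3.06-fold lower, and by −1.78 to −1.39 with any 1 library left out. For Mir27a the strand ratio was 20.6 to 30.6 in control and 37.4, 17.4 and 17.6 in irradiated replicates 1, 2 and 3, with overlap (−0.16 ± 0.40 SE, exact permutation p of 0.8, adjusted 0.8). Whether the strand ratios of Mir27a and Mir27b differed in their change was not tested.

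For miR-24 the guide was 17.1 to 20.9 times as abundant as both passengers together in control and 18.6, 10.5 and 10.4 times in irradiated replicates 1, 2 and 3 (−0.56 ± 0.29 SE, exact permutation p of 0.3, adjusted 0.375). Irradiated replicate 1 lay within the control range, and replicates 2 and 3 lay below it. The chromosome 8 passenger was 15.8 to 19.9 times as abundant as the chromosome 13 passenger in control and 19.4 to 22.6 times in irradiated libraries (0.26 ± 0.12 SE, exact permutation p of 0.2, adjusted 0.286). The miR-23 guides were nearly equal, with 1.27 to 1.39 reads of miR-23a-3p per read of miR-23b-3p in control and 1.26, 1.72 and 1.504 in irradiated replicates 1, 2 and 3 (0.18 ± 0.14 SE, exact permutation p of 0.4, adjusted 0.444). These last 2 ratios overlapped between groups.

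Ratios between the guide families also separated the groups. MiR-23 reads per read of miR-27, both guides summed, were 0.0418, 0.0486 and 0.0408 in control and 0.0966, 0.137 and 0.0779 in irradiated replicates 1, 2 and 3. Every irradiated library was above every control, and the log2 ratio was 1.21 ± 0.25 higher (SE, n = 3 per group, exact permutation p of 0.1, adjusted 0.167). MiR-24-3p per read of miR-27 was 0.144, 0.226 and 0.178 in control and 0.241, 0.377 and 0.239 in irradiated libraries, a log2 difference of 0.64 ± 0.29 (SE, n = 3, exact permutation p of 0.1, adjusted 0.167) without overlap. It was 0.42 without irradiated replicate 2 and ran from 0.42 to 0.80 with any 1 library left out. MiR-24-3p per read of miR-23 was 3.44 to 4.64 in control and 2.49 to 3.07 in irradiated libraries, a difference of −0.57 ± 0.16 (SE, n = 3, exact permutation p of 0.1, adjusted 0.167). In these 3 ratios the irradiated libraries thus held more miR-23 relative to both other families, and more miR-24-3p relative to miR-27, than any control. Any 1 of the 3 follows from the other 2, so they are not separate results.

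**Figure D4:**
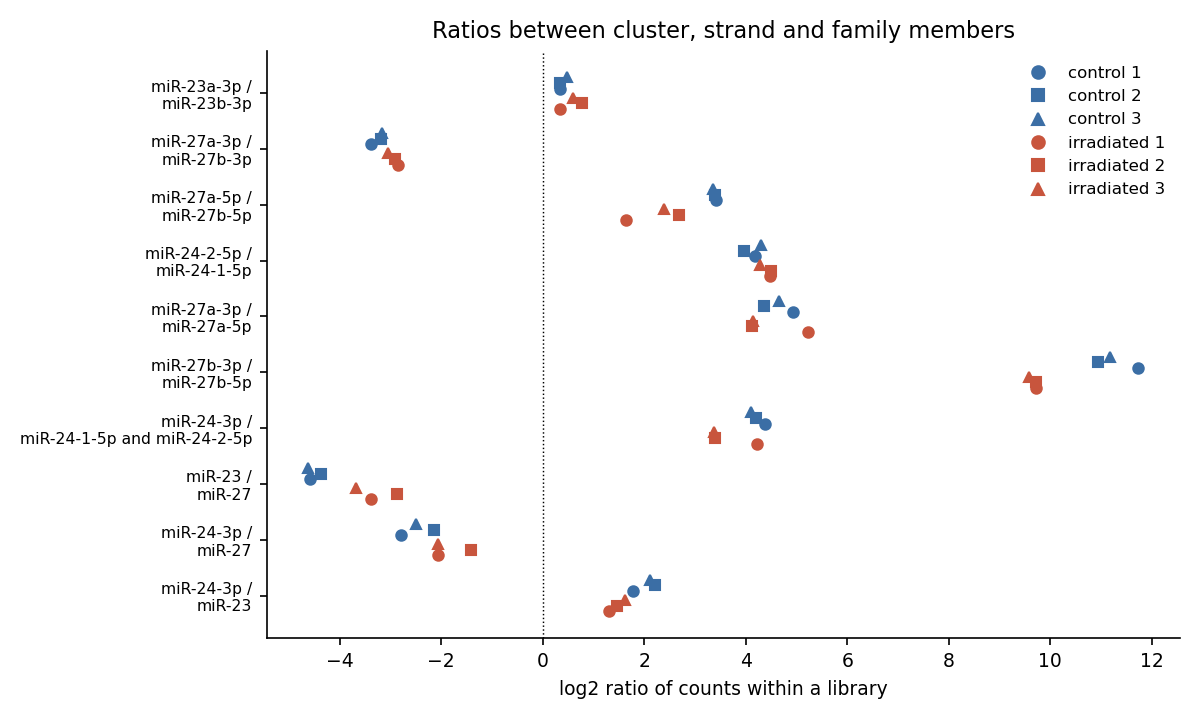
Log2 ratio of read counts within each library for the 10 pairs, with controls in blue and irradiated libraries in red, and 0 marking equal counts. The largest differences between group means are miR-27b-3p over miR-27b-5p (−1.61), miR-23 over miR-27 (1.21) and miR-27a-5p over miR-27b-5p (−1.15).

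The other mature strands of the clusters are the miR-23 passengers, which were barely present. MiR-23a-5p had 0 reads in all 6 libraries, which allows up to 0.278 to 0.428 CPM depending on the library. MiR-23b-5p had 6, 4 and 8 reads in control and 11, 10 and 8 reads in irradiated replicates 1, 2 and 3 and did not pass the filter for testing.

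The miR-24 counts were nearly duplicated in the table under the names of the miRNAs annotated on the opposite strand. The pairs are shown with the stretch of 20 bases that is the exact reverse complement of the other in capitals.
mmu-miR-24-3p: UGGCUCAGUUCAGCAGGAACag
miR-3074-5p: GUUCCUGCUGAACUGAGCCAgu
mmu-miR-24-2-5p: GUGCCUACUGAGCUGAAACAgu
miR-3074-2-3p: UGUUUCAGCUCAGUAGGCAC
mmu-miR-24-1-5p: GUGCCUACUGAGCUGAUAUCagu
miR-3074-1-3p: GAUAUCAGCUCAGUAGGCACcg
MiR-3074-5p had 29712, 41220 and 33675 reads in control and 43676, 54204 and 42019 reads in irradiated replicates 1, 2 and 3, and miR-24-3p had 29754, 41253 and 33715 and then 43715, 54246 and 42044. The pair differed by 25 to 42 reads in each library. MiR-3074-2-3p stood at 98.6% to 99.3% of miR-24-2-5p, and miR-3074-1-3p at 85.1% to 91.9% of miR-24-1-5p. The entries therefore cannot be read as separate measurements, and from these counts reads of the opposite strands cannot be told apart. MiR-3074-1-3p had an edgeR adjusted p of 0.0487, on the other side of the threshold from miR-24-1-5p (0.0543) although its counts were 85.1% to 91.9% as high. Without the 3 miR-3074 entries, which held 0.365% to 0.695% of library counts, 4 members were higher and 0 lower, as with them.

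**Figure D5:**
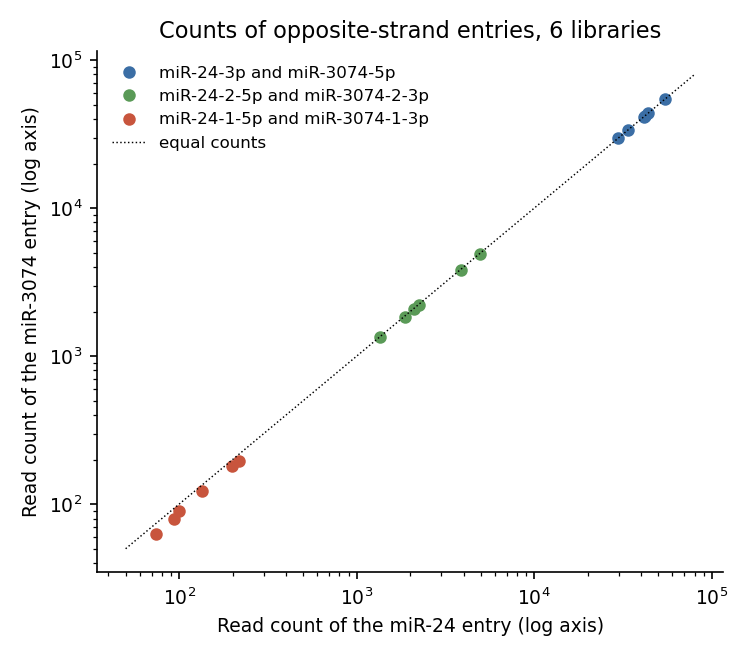
Read count of each miR-3074 entry (vertical log axis) against the miR-24 entry on the opposite strand (horizontal log axis), 1 point per library and pair, with the dotted line marking equal counts. MiR-3074-5p lies on the line at 99.9% of miR-24-3p, and miR-3074-1-3p lies just below it at 85.1% to 91.9% of miR-24-1-5p.

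MiR-128-3p, abundant in thymocytes and neurons, carries a seed that overlaps the miR-27 seed with an offset. The shared run of 8 bases is in capitals, at bases 2 to 9 of miR-27a-3p and bases 1 to 8 of miR-128-3p.
miR-27a-3p: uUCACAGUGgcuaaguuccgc
miR-128-3p: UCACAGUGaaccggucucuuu
In control replicates 1, 2 and 3 miR-128-3p was at 17427, 11618 and 17815 CPM, near the level of miR-27b-3p. In irradiated replicates 1, 2 and 3 it was at 218, 274 and 406 CPM (log2 change −5.70 ± 0.36 SE, adjusted p of 4.0e-06 in edgeR). MiR-27b-3p thus stood at 15167 to 20823 CPM in libraries where miR-128-3p was at 218 to 406 CPM. The difference between their changes was not tested.

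The miRNAs whose levels ran closest to the abundant members across the 6 libraries were found by the distance between log2 CPM values centred on each miRNA's mean, among 302 candidates. The nearest to miR-27b-3p were let-7c-5p (distance 0.30), let-7b-5p (0.32) and let-7f-5p (0.38), where the median candidate was at 2.05. For miR-24-3p, after miR-3074-5p, they were miR-22-3p (0.26) and miR-1843b-5p (0.30), with a median of 1.75. For miR-27a-3p they were miR-375-3p (0.43), let-7a-1-3p (0.47) and miR-500-3p (0.47), with a median of 1.89. The lowest edgeR adjusted p among these 9 was 0.0509, for miR-22-3p.

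Lists of marker miRNAs for cell types that thymus tissue can hold were measured in the same libraries, and their counts stand against 27.7% of all tested miRNAs called higher and 33.5% called lower. In whole tissue, fewer cells of a type and less RNA per cell cannot be told apart. The lymphoid list had 5 of 6 members lower and 0 higher, with a summed level of 101317 to 168255 CPM in control and 6878 to 11384 CPM in irradiated libraries. All 3 epithelial miRNAs were higher, with a sum of 2799 to 3549 CPM in control and 9509 to 14083 CPM in irradiated libraries. Of the endothelial pair 1 was higher, and the sum was 5058 to 5755 CPM and then 15675 to 24538 CPM. Of 5 fibroblast and smooth muscle miRNAs 3 were higher, with sums that overlapped (84994 to 233124 CPM and 186725 to 299373 CPM). Nearly all of each sum was miR-143-3p, at 84137 to 232256 CPM in control and 184391 to 295634 CPM in irradiated libraries. The 3 called higher, miR-199a-3p, miR-199a-5p and miR-214-3p, had groups that did not overlap, while miR-143-3p and miR-145a-5p overlapped. The 3 erythroid and 3 striated muscle miRNAs all passed as higher, but the erythroid sums overlapped, with irradiated replicate 1 inside the control range. Of 4 myeloid miRNAs 1 was higher, close to the share over all miRNAs, and the sums overlapped (34.2 to 61.3 CPM in control and 50.7 to 165 CPM in irradiated libraries). No listed marker was at 0 in all libraries.

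Single markers of each list are given by their log2 fold change, with the edgeR adjusted p in brackets. MiR-181a-5p, a thymocyte miRNA, had −4.83 (1.8e-05). MiR-126a-3p of endothelial cells had 2.02 (1.5e-04), and its other strand miR-126a-5p, with 0.09 (0.768), did not pass. MiR-199a-3p of fibroblasts had 3.07 (5.2e-05), while miR-143-3p of smooth muscle, with 0.73 (0.118), did not pass. MiR-200b-3p and miR-203-3p of epithelia had 2.54 (2.0e-04) and 1.32 (9.9e-04). MiR-223-3p of myeloid cells, with 0.59 (0.388), did not pass, and miR-223-5p had 1.99 (0.00135). MiR-451a and miR-144-3p of red cells had 2.74 (0.0264) and 3.53 (0.0203), with overlapping groups, since irradiated replicate 1 stood at 334 and 9.26 CPM, within the control range. MiR-1a-3p and miR-133a-3p of muscle had 5.19 (0.0101) and 4.85 (0.0104). The part of any of these cell types in the members' values was not tested.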

How the data were processed

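Small-RNA libraries of 3 control and 3 irradiated thymi were analysed. The table the authors deposited holds whole-number read counts per mature miRNA, per the file headers, and these were used. The deposited TPM values are counts over the column total with no length term (recomputed values differed by at most 4.61e-05). The authors' log2 fold changes and p-values, per the file headers, come from the deposited table; per the submitters' processing notes DESeq2 1.10.1 was used. The sources used here give no aligner, counter, build or strand setting. Another 6 count columns, of samples without labels, were not used.

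Counts were tested with edgeR 4.0.16 (R 4.3.3): TMM factors, filterByExpr, robust quasi-likelihood, group as the only term, Benjamini-Hochberg over 519 miRNAs, threshold 0.05. Total counts per library were 7730641 to 9287017, and replicates were no copies of each other. Members were set by name, and members and lists were chosen with earlier results of these data known. Named besides were the 3 nearest miRNAs (mean of at least 10 CPM) of the 3 most abundant members, the 2 most abundant markers of each list, other strands of the clusters and miR-128-3p. The miR-3074 entries were chosen after their values were seen. Ratios and shares used exact two-sided permutation tests. P-values compare the groups against the spread between these 6 libraries as labelled, which edgeR moderates over all tested miRNAs. Alternatives were other scaling, other filters, DESeq2 1.42.0, limma-voom (limma 3.58.1), a replicate block, no most abundant miRNA and each library left out. The omission of irradiated replicates 2 and 3 and of the miR-3074 entries was added after seeing the data. The edgeR steps were tested on simulated data.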

Additional observations from a re-analysis of the deposited data

How the results depend on the processing

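The number of members called higher was 2 under library totals and 7 under upper-quartile factors, against 4 as reported, and ran from 2 to 5 with any 1 library left out (2 without control replicate 2). No alternative called a member lower. Over all miRNAs the number higher was 87 when only means of 10 CPM or more were kept, where fewer miRNAs were tested, and ran from 110 to 183 with 1 library left out. MiR-23a-3p and miR-27b-5p passed in every alternative with more than 1 irradiated library. Among those alternatives, the call of miR-23b-3p was lost in 4 and that of miR-24-2-5p in 2. Changes near 0 turned sign: miR-27a-3p was −0.045 under library totals, −0.18 under the 10 CPM filter and −0.14 to 0.36 with 1 library left out. MiR-27a-5p was −0.0056 under the 10 CPM filter. MiR-27b-3p was 0.17 with upper-quartile factors, 0.18 without irradiated replicates 2 and 3 and −0.45 to 0.051 with 1 library left out. The miR-27a-3p over miR-27a-5p ratio ran from −0.52 to 0.030 with 1 library left out. The members' share of counts, lower by 0.262 percentage points as reported (a difference of −0.262), was higher by 0.257 once the most abundant miRNA left the denominator. The causes were not tested. Same-numbered libraries did not all deviate together (correlations 0.0994, −0.0244 and 0.23), and not every library correlated best with its own number, so the numbers were not taken to pair mice. With the replicate number as a block 4 members were higher and 0 lower, and 127 miRNAs were higher and 171 lower in all. Depth limits miR-27b-5p and miR-24-1-5p most, at 55 to 218 reads per library.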

Other observations

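Near-equal counts of entries with reverse-complement sequences were not limited to miR-24. In the deposited data, 53 pairs of counted entries share a run of at least 16 bases with the other's reverse complement. Of these, 37 had at least 100 reads in 1 entry over the 6 libraries. The pairs were found by sequence alone, and some are opposite arms named for the same hairpin, as miR-486a-3p and miR-486a-5p. For 18 of the 37 the smaller count, summed over the 6 libraries, was over 90% of the larger. MiR-142a-3p and miR-142b had 214703 reads each, and miR-1a-3p and miR-1b-5p had 298766 and 298463 reads. Others were far apart, as miR-126a-3p with 596161 reads and miR-126b-5p with 1452 reads. MiR-30a-3p and miR-30f, among the 18, were near-equal in sum (11209 and 11639 reads) but not within the groups. Their mean levels were 84.3 and 247 CPM in control and 346 and 199 CPM in irradiated libraries. These examples were chosen after their values were seen.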
